A study of Mus musculus with 10 samples.

Results

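Described here are 6 receptor genes of mouse myeloid cells, Ccr1, Ccr2, Cx3cr1, Cxcr2, Cxcr4 and Ackr2, out of 29893 genes with a matched transcript. They were chosen by name as chemokine receptors of monocytes and neutrophils, with earlier results of these data known. The symbols were matched to the authors' comparison tables, where 5 stand under their own name and Ackr2 under its older symbol Ccbp2, matched by gene identifier. The study sorted neutrophils and CCR2+ monocytes from lungs of NOD/scid mice at the end point of tumour growth and sequenced their RNA after Smart-seq2 amplification, which makes full-length cDNA from little RNA by PCR. All mice carried a tumour, either HCl-001 (TN1), which the labels call highly metastatic, or HCl-002 (TN2), which they call low metastatic, and no lungs free of tumour were analysed here. Neutrophils TN1 and monocytes TN1 hold 2 libraries each (tag_191 and tag_482), and neutrophils TN2 and monocytes TN2 hold 3 each (tag_367, tag_706 and tag_1341), which makes 10 libraries. All groups share the NOD/scid strain, whose scid allele blocks the maturation of B and T lymphocytes, and the end point. The age of the mice and any drug treatment are not given in the labels, and the labels do not say that each tag is a separate animal, so p-values measure the spread between these samples, which may be partly technical.

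Chemokine receptors are G protein coupled receptors that steer leukocytes along gradients of small secreted proteins, the chemokines. CCR2 takes inflammatory monocytes out of the bone marrow and into inflamed lung, CX3CR1 marks monocytes that patrol vessels and rises as classical monocytes mature, and CXCR2 moves neutrophils out of the marrow toward CXC chemokines. CXCR4 holds both cell types in the marrow through CXCL12, CCR1 answers several inflammatory CC chemokines, and ACKR2 is an atypical receptor that takes up inflammatory CC chemokines without G protein signalling.

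The depth per library was 7239218 to 11311370 estimated counts, with at least 5 counts for 8851 to 15211 genes. The labelled cell types were checked with marker genes other than the 6 receptors. Ly6g, a neutrophil surface antigen, stood at 66.2 to 125 CPM (counts scaled to library size) in neutrophils and at 0 to 3.63 CPM in monocytes. F13a1, a gene of classical monocytes, stood at 250 to 1015 CPM in monocytes and at 0.57 to 6.31 CPM in 4 of 5 neutrophil libraries. The T cell gene Cd3e had 0 CPM in all 10 libraries. The summed level of 14 neutrophil genes was 87641 to 116601 CPM in neutrophils and 1354 to 3043 CPM in monocytes. The summed level of 13 monocyte genes does not separate the populations, at 33839 to 65284 CPM in neutrophils and 21850 to 53360 CPM in monocytes. In the monocyte libraries the alveolar macrophage list of 10 genes summed to 167 to 9273 CPM, of which Chil3, also a monocyte gene, gave 73.8 to 9224 CPM, and its other 9 genes summed to 49.2 to 489 CPM. The interstitial macrophage list summed to 444 to 1610 CPM, natural killer cells to 47.0 to 459 CPM, lymphocytes to 20.3 to 45.0 CPM, and eosinophils, basophils and mast cells to 2.11 to 35.2 CPM.

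Among the 10, 4 libraries stand apart. The 2 libraries of tag_482 detected fewer genes than all others of the same cell type and had the highest share of TPM on mitochondrial genes (3.0% in neutrophils, 19.9% in monocytes), and the monocyte library of this tag had the highest level of Flt3, a dendritic cell gene, at 79.8 CPM against 13.2 to 41.6 CPM in the other monocytes. Its dendritic cell list of 10 genes summed to 1353 CPM, against 175 to 362 CPM in the other monocytes and 892 to 1535 CPM in the neutrophils. The neutrophil library TN2 tag_1341 held monocyte genes, with Ly6c2 at 185 CPM and F13a1 at 177 CPM. The monocyte library TN2 tag_706 held the most lung tissue genes, with 8472 counts of the endothelial gene Cldn5 and 1583 of the alveolar epithelial gene Sftpc. The other libraries were not free of them. They held up to 1102 counts of Cldn5 (neutrophils TN2 tag_367) and up to 373 of Sftpc (neutrophils TN2 tag_706). For some of the results that rest on these libraries, values without them are given as well. Without these 4 libraries each TN1 group is tag_191 alone, so its spread is then assumed equal to that of the TN2 libraries.

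The gene positions are those of the mouse GENCODE release M21 on GRCm38, all protein-coding. Ccr1 lies at chr9:123962124-123968692 on the minus strand and Ccr2 at chr9:124101950-124113557 on the plus strand. Cxcr2 lies at chr1:74153989-74161246 on the plus strand and Cxcr4 at chr1:128588199-128592293 on the minus strand. Cx3cr1 spans chr9:119901616-120069879 on the minus strand, and Ackr2 spans chr9:121898355-121911074 on the plus strand. The 250 bases before the RefSeq start site are shown for the 4 receptors whose level differed between the cell types, because these are the proximal promoters of the genes compared. The sequences are from RefSeq (GRCm38.p6), 5′ to 3′ on the gene's strand, with matches to a motif searched in capitals.
Ccr1: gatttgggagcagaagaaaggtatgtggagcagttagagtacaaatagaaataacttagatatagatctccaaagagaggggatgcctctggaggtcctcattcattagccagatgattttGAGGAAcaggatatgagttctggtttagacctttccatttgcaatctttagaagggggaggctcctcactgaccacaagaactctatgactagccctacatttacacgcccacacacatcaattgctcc
Cxcr2: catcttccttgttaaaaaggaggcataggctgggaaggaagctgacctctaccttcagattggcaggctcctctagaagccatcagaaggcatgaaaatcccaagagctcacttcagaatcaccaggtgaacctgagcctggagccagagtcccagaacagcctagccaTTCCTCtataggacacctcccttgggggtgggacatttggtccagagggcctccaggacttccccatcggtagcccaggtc
Cxcr4: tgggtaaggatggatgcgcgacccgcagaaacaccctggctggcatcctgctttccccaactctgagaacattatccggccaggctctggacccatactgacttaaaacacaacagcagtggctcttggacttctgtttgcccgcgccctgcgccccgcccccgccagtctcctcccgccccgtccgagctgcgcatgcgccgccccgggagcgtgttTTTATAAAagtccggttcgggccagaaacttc
Ccr2: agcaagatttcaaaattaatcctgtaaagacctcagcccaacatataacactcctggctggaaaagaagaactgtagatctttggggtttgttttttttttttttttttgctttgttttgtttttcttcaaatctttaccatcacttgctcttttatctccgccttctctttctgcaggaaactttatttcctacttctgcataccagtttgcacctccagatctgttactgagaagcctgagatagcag
These windows lie at chr9:123968693-123968942 on the minus strand (Ccr1), chr1:74153744-74153993 on the plus strand (Cxcr2), chr1:128592300-128592549 on the minus strand (Cxcr4) and chr9:124101933-124102182 on the plus strand (Ccr2). For Ccr2 the start site used, 124102183, lies inside the GENCODE span of the gene, so its window covers the start of a longer transcript. The motifs were searched on both strands and were GAGGAA, a core bound by the myeloid factor PU.1, TTGCNNAA, a C/EBP motif, TGANTCA, an AP-1 site, and TATAAA, the TATA box. The PU.1 core occurred once in the Ccr1 window, at positions -129 to -124 from the start site, and once on the other strand in the Cxcr2 window, at -81 to -76. It occurs in 23.3% of 32817 promoter windows of the same length, so a match is common. The Cxcr4 window held a TATA box at -30 to -25, with an overlapping match on the other strand at -32 to -27, a motif found in 12.4% of windows. The C/EBP motif and the AP-1 site, found in 9.57% and 6.75% of windows, had no match in the 6 receptor windows, and the Ccr2, Cx3cr1 and Ackr2 windows held no match to any of the 4 motifs. The Cxcr4 window had 61.2% G and C with 19 CpG pairs, against 43.6% and 1 pair for Ccr1, 54.4% and 1 pair for Cxcr2, and 37.2% and 1 pair for Ccr2.

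The receptor make-up of the cell types differed. In neutrophils the levels in TPM, a scale of transcript shares corrected for length on which genes can be compared, ran from Ccr1 (1103 ± 255 TPM, SD, n = 5) and Cxcr2 (730 ± 119 TPM) to Cxcr4 (63.7 ± 23.1 TPM). Far below these stood Ccr2 (6.35 ± 6.90 TPM), Cx3cr1 (2.89 ± 2.60 TPM) and Ackr2 (2.57 ± 3.43 TPM). The ranges of Ccr1 and Cxcr2 overlapped, although Ccr1 was the higher in each of the 5 neutrophil libraries. Those of Ccr2, Cx3cr1 and Ackr2 overlapped with each other, while the range of Ccr2 lay below that of Cxcr4. In monocytes the order was Ccr2 (274 ± 91.4 TPM, SD, n = 5), Ccr1 (210 ± 104 TPM), Cxcr4 (43.9 ± 16.1 TPM), Cx3cr1 (21.6 ± 13.7 TPM), Cxcr2 (9.14 ± 13.3 TPM) and Ackr2 (7.38 ± 12.2 TPM). Ccr2 was above Ccr1 in 3 of 5 monocyte libraries, and of neighbours in this order only Ccr1 and Cxcr4 had ranges that did not overlap. Ccr1 and Cxcr2 made up 95.2% to 96.6% of the summed TPM of the 6 receptors in each neutrophil library. Ccr1 and Ccr2 made up 71.5% to 94.5% in each monocyte library, with the lowest share in TN2 tag_706.

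**Figure D1:**
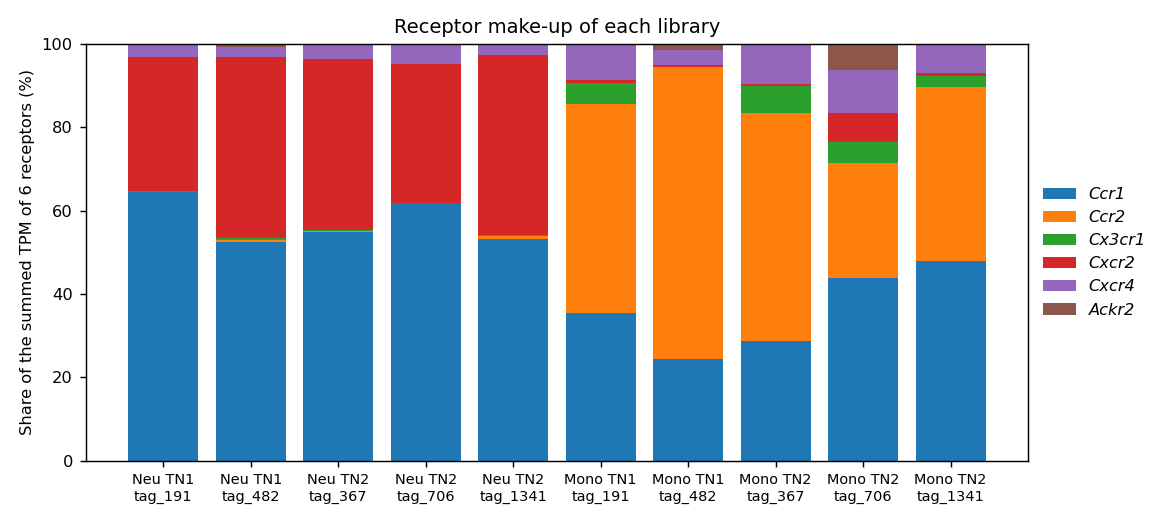
Share of the summed TPM of the 6 receptors (y axis, %) held by each receptor (colours) in the 10 libraries (x axis, one bar each). Ccr1 and Cxcr2 fill the neutrophil bars, and Ccr1 and Ccr2 most of the monocyte bars, with Cxcr2 at 7.11% and Ackr2 at 6.19% in monocytes TN2 tag_706.

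The cell types were compared first (monocytes minus neutrophils, averaged over the tumours, edgeR quasi-likelihood F test on estimated counts with Benjamini-Hochberg adjustment over 13384 genes and a threshold of 0.05). Of the 6 receptors, 1 was higher in monocytes and 3 were lower, and 2 did not pass. The higher one was Ccr2, the surface marker of the monocyte sort, so no receptor outside the sort was called higher. In these counts and in the median, Ccr2 is a check of the sort and no finding. Over all genes tested 15.5% passed as higher and 12.4% as lower, 27.9% in all. At an unadjusted p below 0.05 the same 4 receptors and 40.9% of all genes stood. The cell types did not overlap in CPM for these 4 receptors, against 28.5% of all genes tested (16% higher, 12.6% lower). In TPM 3 of them, Ccr1, Cxcr2 and Ccr2, did not overlap, against 31.3% of all genes. Log2 differences without the 4 libraries that stand apart are given below for Cxcr2, Ccr2, Cx3cr1 and Ackr2. The median log2 difference was -0.40 over the 6 receptors and 0.46 over all genes tested. In bulk RNA of sorted cells, fewer cells that express a gene and less of its RNA per cell cannot be told apart.

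**Figure D2:**
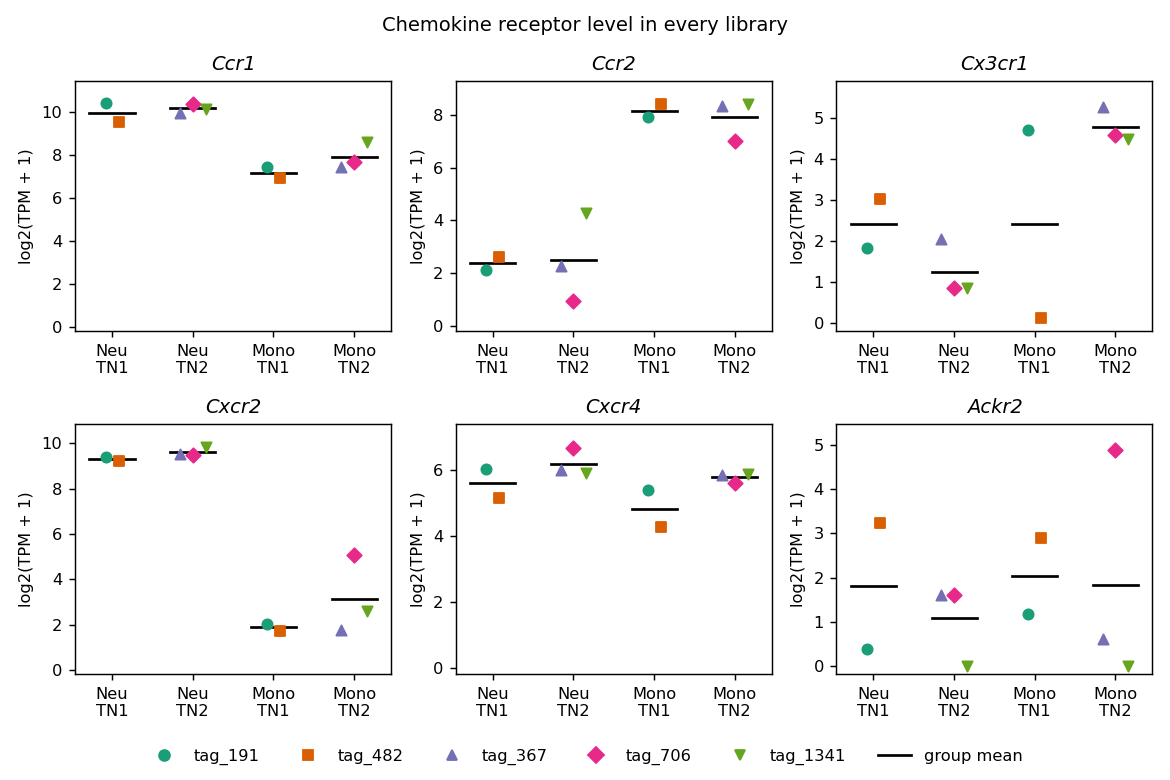
Level of each receptor as log2(TPM + 1) (y axis, linear) in every library of the 4 groups (x axis), with symbols for the tag and a bar at the group mean. Ccr1, Cxcr2 and Ccr2 separate the cell types in every library, while Cx3cr1 in monocytes TN1 splits between 25.1 TPM and 0.0904 TPM.

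Ccr1, the receptor of CCL3, CCL5, CCL6 and CCL9, was lower in monocytes. In neutrophils it stood at 1345 TPM (TN1 tag_191), 727 TPM (TN1 tag_482), 990 TPM (TN2 tag_367), 1320 TPM (TN2 tag_706) and 1133 TPM (TN2 tag_1341). In monocytes the same tags gave 170, 118, 170, 202 and 389 TPM. All 5 neutrophil libraries were above all 5 monocyte libraries, and the highest monocyte library, TN2 tag_1341, was still below the lowest neutrophil library. In CPM the means were 368 ± 160 in monocytes and 3485 ± 973 in neutrophils (SD, n = 5 each), a log2 difference of -3.28 ± 0.34 (SE, edgeR adjusted p = 0.000179). On the TPM scale the neutrophil mean was 5.26 times the monocyte mean, 7.18 times in TN1 and 4.53 times in TN2. Only 1 transcript of Ccr1 was quantified, so its level does not depend on a split between isoforms.

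Cxcr2, the neutrophil receptor of CXCL1, CXCL2 and other ELR chemokines, had the largest cell type difference of the 6. In neutrophils it stood at 672 and 602 TPM in TN1 (tag_191, tag_482) and at 739, 715 and 922 TPM in TN2 (tag_367, tag_706, tag_1341). In monocytes it stood at 3.12 and 2.32 TPM in TN1 and at 2.40, 32.9 and 4.97 TPM in TN2, in the same order of tags. The groups did not overlap, and TN2 tag_706 was the only monocyte library above 5 TPM. In CPM the means were 15.0 ± 19.3 in monocytes and 2145 ± 567 in neutrophils (SD, n = 5 each), a log2 difference of -7.52 ± 0.77 (SE, edgeR adjusted p = 0.000172), and -8.20 without the 4 libraries that stand apart. The neutrophil list, Cxcr2 left out, summed to 3042 CPM in monocytes TN2 tag_706 and 3043 CPM in TN2 tag_1341, against 1354 to 1558 CPM in the other 3 monocyte libraries, and its part in the monocyte level of Cxcr2 was not tested. The transcripts Cxcr2-201 and Cxcr2-202 shared the neutrophil signal about evenly, at 46.2% to 50.3% and 49.7% to 53.8% of its TPM. In monocytes Cxcr2-201 was listed at 0 in 4 of 5 libraries, and in TN2 tag_706 it held 24.2%.

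Cxcr4, the receptor of CXCL12, was lower in monocytes on the count scale, a call that depended on the scale. In neutrophils it stood at 64.3 and 34.1 TPM in TN1 (tag_191, tag_482) and at 62.8, 98.7 and 58.2 TPM in TN2 (tag_367, tag_706, tag_1341). In monocytes it stood at 40.3 and 18.0 TPM in TN1 and at 56.5, 47.5 and 57.2 TPM in TN2. In TPM the cell types overlapped, and tag_482 was the lowest library in both. In CPM they did not overlap, with means of 46.4 ± 14.0 in monocytes and 122 ± 49.3 in neutrophils (SD, n = 5 each). The log2 difference was -1.38 ± 0.31 (SE, edgeR adjusted p = 0.00983) on counts and -0.59 on log2(TPM + 1) (limma adjusted p = 0.137). Without monocytes TN1 tag_482 the count-based difference was -1.19 with an adjusted p of 0.0617. The same change of scale moved the median of all genes tested from 0.46 to 0.62 and the calls from 2070 higher and 1663 lower to 4532 higher and 1198 lower. Cxcr4-201 held at least 99.4% of the TPM of Cxcr4 in every library.

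Ccr2, the receptor of CCL2, CCL7 and CCL12, was the surface marker of the monocyte sort, so its difference is a check of the sort and no finding. In monocytes it stood at 240 and 340 TPM in TN1 (tag_191, tag_482) and at 324, 128 and 339 TPM in TN2 (tag_367, tag_706, tag_1341). In neutrophils it stood at 3.37 and 5.19 TPM in TN1 and at 3.89, 0.905 and 18.4 TPM in TN2. Every monocyte library was above every neutrophil library. The lowest monocyte library, tag_706, was the one with the most lung tissue genes, and the highest neutrophil library, tag_1341, the one with monocyte genes. The log2 difference was 4.87 ± 0.83 (SE, edgeR adjusted p = 0.00210) and 5.91 without the 4 libraries that stand apart. Of the 4 transcripts of Ccr2, Ccr2-201 and Ccr2-202 led in monocytes, at 36.1% to 63.8% and 26.0% to 51.3% of its TPM. Reads that fit more than 1 related receptor gene, such as Cxcr1 and Cxcr2, were divided between them by the quantification.

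Cx3cr1, the receptor of CX3CL1, was higher in 4 of 5 monocyte libraries than in any neutrophil library, but did not pass the test. In monocytes it stood at 25.1 TPM (TN1 tag_191), 0.0904 TPM (TN1 tag_482), 38.0 TPM (TN2 tag_367), 23.0 TPM (TN2 tag_706) and 21.6 TPM (TN2 tag_1341). In neutrophils the same tags gave 2.57, 7.14, 3.17, 0.794 and 0.801 TPM. The tag_482 libraries were the exception in both cell types, with 2 estimated counts in monocytes and the highest neutrophil level, 174 counts. The log2 difference was 1.91 ± 0.98 (SE, edgeR adjusted p = 0.170). Without monocytes TN1 tag_482 it was 2.38 (edgeR adjusted p = 0.0217) and without the 4 libraries that stand apart 2.82 (edgeR adjusted p = 0.00274). Without monocytes TN1 tag_191, which leaves tag_482 as the only monocyte library of TN1, it was -1.51. The direction for Cx3cr1 therefore turned on which TN1 monocyte library was kept.

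The level of Cx3cr1 also depended on the transcript, and 2 of its 3 annotated transcripts were quantified. Cx3cr1-202 held 79.6% to 95.5% of the TPM of Cx3cr1 in 4 of 5 monocyte libraries and 0% in TN1 tag_482. Cx3cr1-201 stood at 1.81 TPM (TN1 tag_191), 0.0904 TPM (TN1 tag_482), 3.0 TPM (TN2 tag_367), 1.03 TPM (TN2 tag_706) and 4.40 TPM (TN2 tag_1341) in monocytes, and at 0.188 to 2.14 TPM in neutrophils. On Cx3cr1-201 alone the cell types overlapped, with a log2 difference of 0.26 ± 0.99 (SE, edgeR adjusted p = 0.873). The 4 group means of Cx3cr1 in the authors' deposited table equal Cx3cr1-201 alone, for example 1.82 on the log2 scale in monocytes TN2, where the sum of both transcripts gives 4.79. For the other 5 receptors, 20 of 24 group means compared in all, the authors' deposited table equals the mean of log2(TPM + 1) of the gene sum within 0.01. The long GENCODE span of Cx3cr1 crosses other genes, among them Csrnp1, Gorasp1 and Xirp1 on the same strand.

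**Figure D3:**
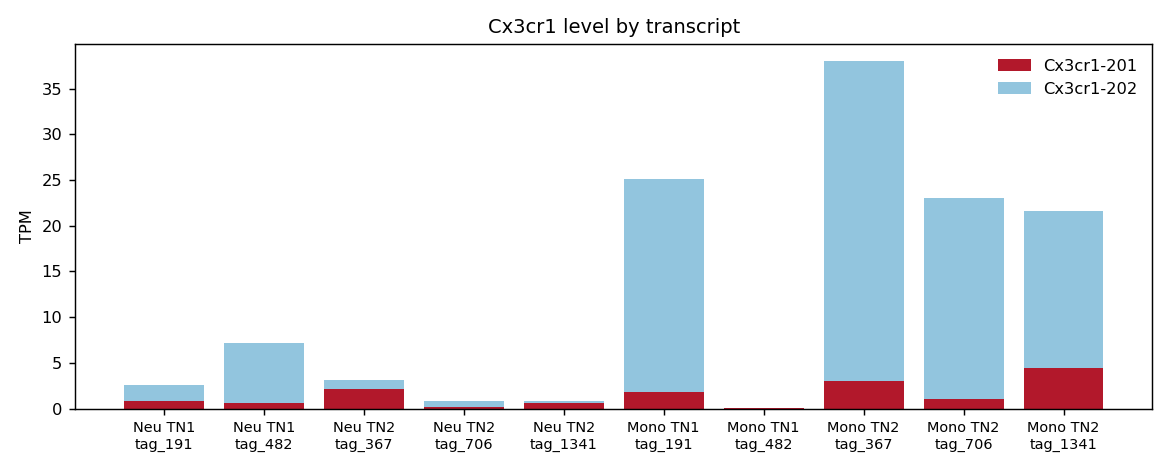
TPM of Cx3cr1 (y axis) in the 10 libraries (x axis), stacked by transcript, Cx3cr1-201 in red and Cx3cr1-202 in light blue. Cx3cr1-202 makes up most of the bar in 4 of 5 monocyte libraries, and monocytes TN1 tag_482 has 0.0904 TPM, all of it Cx3cr1-201.

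Ackr2, with 1 of its 4 annotated transcripts quantified, was low and did not pass between the cell types. In neutrophils it stood at 0.304 and 8.46 TPM in TN1 (tag_191, tag_482) and at 2.06, 2.03 and 0 TPM in TN2 (tag_367, tag_706, tag_1341). In monocytes it stood at 1.26 and 6.48 TPM in TN1 and at 0.517, 28.6 and 0 TPM in TN2. The cell types overlapped fully, and both tag_1341 libraries had 0 counts. The log2 difference was 0.59 ± 1.64 (SE, edgeR adjusted p = 0.816), and -1.93 without monocytes TN2 tag_706, which held 613 of the 766 monocyte counts. Ackr2 is also expressed by lymphatic endothelium, so 9 endothelial genes (Pecam1, Cdh5, Kdr, Tek, Tie1, Egfl7, Cldn5, Vwf and Lyve1) were summed. They were chosen after the values had been seen and are not specific to lymphatic endothelium. Their sum was 2310 TPM in monocytes TN2 tag_706, 14.8 to 169 TPM in the other monocytes and 3.48 to 299 TPM in neutrophils. The lowest sum of each cell type was in tag_1341, where Ackr2 was at 0. Over the 10 libraries, which share their preparation and differ in depth, the Spearman coefficient of Ackr2 and this sum was 0.888. It was 0.845 over the 9 libraries without monocytes TN2 tag_706. The sum includes Tek, one of the genes most like Ackr2 over these same libraries, so the coefficient is only a description. The part of endothelial RNA in the level of Ackr2 was not tested.

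**Figure D4:**
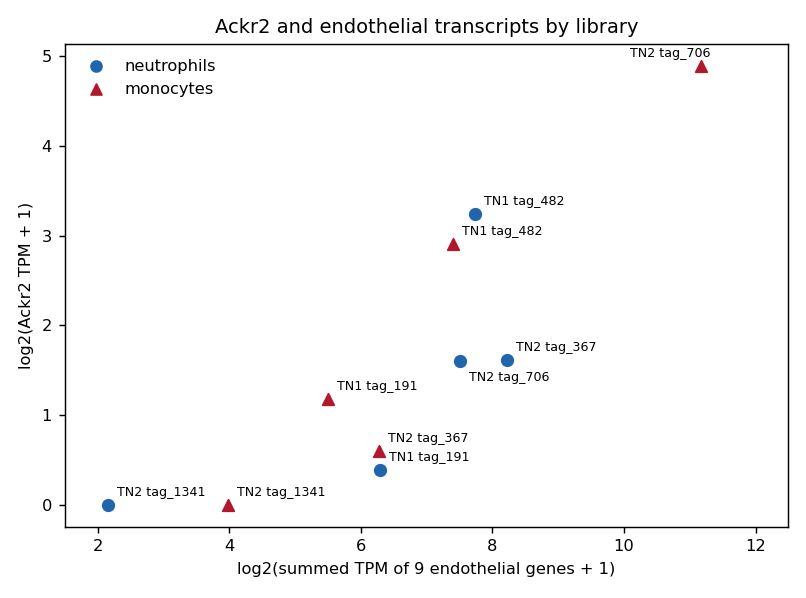
Ackr2 as log2(TPM + 1) (y axis) against the summed TPM of 9 endothelial genes as log2(sum + 1) (x axis), one point per library, circles for neutrophils and triangles for monocytes. Both tag_1341 libraries sit at 0 on the y axis with the lowest sums of their cell type, and monocytes TN2 tag_706 is highest on both axes.

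The comparison the study was designed for is that of the tumours within each cell type, and no receptor passed it. In neutrophils, TN2 minus TN1, 0 of 6 receptors and 0 of 13384 genes (0%) passed by edgeR. At an unadjusted p below 0.05 there were 0 receptors and 625 genes (4.67%). In monocytes 0 of 6 receptors and 0 of 13384 genes (0%) passed, and 0 receptors and 379 genes (2.83%) had an unadjusted p below 0.05. DESeq2 called 78 genes higher and 9 lower in TN2 neutrophils and 17 higher and 5 lower in TN2 monocytes, among them 0 of the 6 receptors. limma-voom called 0 genes in either cell type. The tumours overlapped in CPM for all 6 receptors in both cell types, while 17.7% of genes in neutrophils (11.8% higher in TN2, 5.91% lower) and 20.1% in monocytes (12.4% higher, 7.73% lower) did not overlap. In TPM 1 receptor did not overlap in each cell type, and both were higher in TN2, Cxcr2 in neutrophils (602 and 672 TPM in TN1, 715 to 922 TPM in TN2) and Cxcr4 in monocytes (18.0 and 40.3 TPM in TN1, 47.5 to 57.2 TPM in TN2). Over all genes tested, 17.1% in neutrophils and 24.4% in monocytes did not overlap in TPM.

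The tumour differences had the smallest errors for Ccr1 and Cxcr4. In neutrophils the log2 differences of Ccr1, Cxcr2 and Cxcr4 were 0.25 ± 0.44, 0.41 ± 0.79 and 0.67 ± 0.44 (SE). In monocytes those of Ccr1 and Cxcr4 were 0.49 ± 0.44 and 0.58 ± 0.44. These values stand beside a median of 0.22 over all genes tested in each cell type. Cxcr2 in monocytes had the smallest unadjusted p of the 6, with 6.05 ± 0.56 CPM in TN1 (SD, n = 2) and 20.9 ± 24.7 CPM in TN2 (SD, n = 3). Its log2 difference was 1.79 ± 0.85 (SE, edgeR adjusted p = 1), and 0.15 without TN2 tag_706, the library with the most lung tissue genes. Before adjustment the edgeR value was 0.0630.

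For Ccr2, Cx3cr1 and Ackr2 the SE was at least 0.95 in both cell types. Ccr2 in neutrophils differed by 1.29 ± 1.02 (log2, SE), and by -0.61 without TN2 tag_1341, the neutrophil library with monocyte genes. In monocytes Ccr2 differed by -0.47 ± 0.95. Cx3cr1 differed by -1.52 ± 1.32 in neutrophils and by 0.92 ± 1.36 in monocytes, where the value was -0.11 without TN1 tag_482. Without both tag_191 libraries the Cx3cr1 difference in monocytes was 7.69. TN1 was then tag_482 alone, with 2 estimated counts and a spread assumed equal to that of the other groups. Ackr2 differed by -1.70 ± 2.29 in neutrophils and 0.78 ± 2.36 in monocytes, and each sign changed when 1 library was left out.

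**Figure D5:**
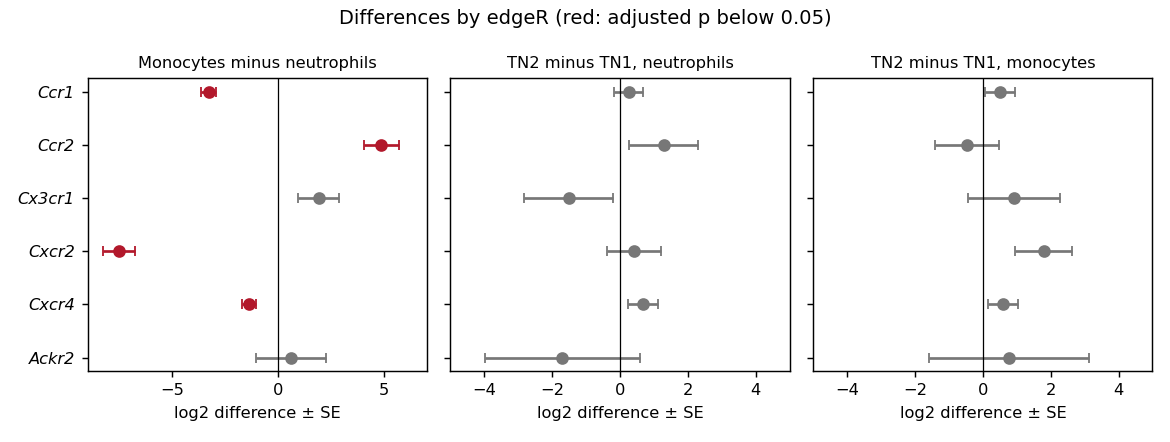
Log2 difference (x axis, bars are ± 1 SE) of the 6 receptors between cell types (left) and between tumours in neutrophils (middle) and monocytes (right), from edgeR on counts, with red for an adjusted p below 0.05. Ccr1, Cxcr2, Cxcr4 and Ccr2 are red in the left panel, and all tumour differences are grey.

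The authors' deposited table gave the tumour comparison with its own p-values, from a test that the labels do not state. For all 6 receptors in both cell types the authors' deposited table has 1 as the adjusted value. The smallest unadjusted value in the authors' deposited table was 0.0672, for Cxcr4 in monocytes, with a log2 fold of 0.96 for TN2 minus TN1. For Cx3cr1 in neutrophils it gives no fold.

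Whether the tumour difference was unlike in the cell types was tested as the difference of the tumour effects, monocytes minus neutrophils. Here 0 of 6 receptors and 0 of 13384 genes (0%) passed by edgeR, and 0 receptors and 472 genes (3.53%) had an unadjusted p below 0.05, while DESeq2 called 7 genes higher and 23 lower, and 0 receptors. The values ran from -1.76 ± 1.38 (SE) for Ccr2 to 2.48 ± 3.32 for Ackr2. Cx3cr1 stood at 2.44 ± 1.91 and, without both tag_191 libraries, at 9.74, again with TN1 as tag_482 alone.

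Of 18 other chemokine receptors, 14 had enough counts for the test between cell types, and 2 were higher in monocytes, 2 lower, and 10 did not pass, a share near that of all genes (15.5% higher, 12.4% lower, 27.9% in all). The median log2 difference was 0.01, against 0.46 over all genes. Without the 4 libraries that stand apart, 2 were higher and 4 lower of 15 tested, against 18.4% and 13.9% of all genes. Ccr7, the receptor that guides cells to lymph nodes, stood at 85.2, 358, 60.0, 125 and 66.3 TPM in monocytes (tag_191, tag_482, tag_367, tag_706, tag_1341) and at 0 to 1.73 TPM in neutrophils. Its log2 difference was 8.44 ± 1.16 (SE, edgeR adjusted p = 0.000679). Ccr7 was highest in the monocyte library with the most Flt3, TN1 tag_482. It is itself in the dendritic cell list and gave 544 of the 1353 CPM of that list there. Ccrl2, an atypical receptor that presents chemerin, had the highest mean TPM of either list in both cell types. It stood at 2185 to 3712 TPM in neutrophils and 326 to 576 TPM in monocytes, a log2 difference of -3.30 ± 0.26 (edgeR adjusted p = 7.0e-05). Cxcr5 was low, at 0.47 to 8.52 TPM in neutrophils and at most 0.95 TPM in monocytes, with a log2 difference of -4.55 ± 1.27 (edgeR adjusted p = 0.0240). Its call was lost without neutrophils TN1 tag_191 or without monocytes TN1 tag_482, with adjusted p up to 0.0898. Cxcr1, the close relative of Cxcr2, was at 0 to 1.96 TPM in 9 libraries and at 29.3 TPM in monocytes TN2 tag_706. In the same library the atypical receptors Ackr1 and Ackr3, which endothelium expresses, stood at 16.3 and 27.1 TPM, against at most 4.73 TPM elsewhere.

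RNA of several ligands of these receptors was present in the sorted cells. Of 19 ligand genes 16 were tested, and 4 were higher in monocytes, 2 lower, and 10 did not pass, against 15.5% of all genes higher and 12.4% lower. The median log2 difference was 0.81, against 0.46 over all genes. Without the 4 libraries that stand apart the counts were 5 and 2, against 18.4% and 13.9% of all genes, with a median of -0.23 against 0.27. Ccl2, a ligand of CCR2, stood at 97.8 to 344 TPM in monocytes and 0.41 to 29.1 TPM in neutrophils, a log2 difference of 3.99 ± 0.65 (SE, edgeR adjusted p = 0.00169). Ccl9, a ligand of CCR1, stood at 646 to 1296 TPM in monocytes and 25.9 to 144 TPM in neutrophils, a log2 difference of 3.34 ± 0.60 (edgeR adjusted p = 0.00280). Ccl22, which ACKR2 takes up, was also higher, by 6.56 ± 1.37 (edgeR adjusted p = 0.00631). Cxcl2 and Ccl6 went the other way, a ligand of CXCR2 and a ligand of CCR1 with higher RNA levels in neutrophils. Cxcl2 stood at 3193 to 5790 TPM in neutrophils and 785 to 1641 TPM in monocytes, a log2 difference of -2.63 ± 0.27 (edgeR adjusted p = 0.000160). Ccl6 stood at 1792 to 3354 TPM in neutrophils and 724 to 1813 TPM in monocytes, a log2 difference of -1.78 ± 0.28 (edgeR adjusted p = 0.00148). Mif, a cytokine that also binds CXCR2 and CXCR4, was higher in monocytes by 1.20 ± 0.30 (edgeR adjusted p = 0.0148), a call lost without monocytes TN1 tag_482 or TN2 tag_367 (adjusted p up to 0.0701).

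Other ligands were detected without a call. Ccl3 was at 132 TPM on average in neutrophils and 127 TPM in monocytes, Ccl4 at 79.7 and 151 TPM, Cxcl3 at 151 and 153 TPM, and Cxcl1 at 177 and 317 TPM. Ccl5 averaged 22.2 TPM in neutrophils and 175 TPM in monocytes, with 592 TPM in TN2 tag_706. Ccl7 was at 0 to 47.7 TPM in monocytes (log2 difference 5.89 ± 2.04, edgeR adjusted p = 0.0610). Cxcl12, the ligand of CXCR4, and Ccl11 stood at 71.1 and 57.6 TPM in monocytes TN2 tag_706, against at most 5.98 and 0.34 TPM in the other 9 libraries.

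Genes that carry the signal from these receptors were counted on both scales. Of 20 signalling genes all were tested, and 1 was higher in monocytes and 9 lower on counts, against 15.5% of all genes higher and 12.4% lower, with a median log2 difference of -0.75 against 0.46. On log2(TPM + 1), 3 were higher and 4 lower by limma, against 33.9% and 8.95% of all genes, with a median of -0.10 against 0.62, so the count of lower genes depended on the scale. Rac2, the GTPase of leukocyte motility, was lower on both scales. It stood at 603 to 776 TPM in neutrophils and 206 to 276 TPM in monocytes, a log2 difference of -2.31 ± 0.21 on counts (edgeR adjusted p = 0.000104) and -1.55 on log2(TPM + 1). Gnai3, a G protein alpha subunit, stood at 133 to 249 TPM in neutrophils and 54.4 to 83.0 TPM in monocytes, a log2 difference of -2.34 ± 0.25 (edgeR adjusted p = 0.000189) and -1.53 on log2(TPM + 1). The kinase Ptk2b and the adhesion adaptor Pxn were lower by counts at -1.94 ± 0.21 and -1.80 ± 0.30, and by log2(TPM + 1) at -1.15 and -1.09. Gng5 was lower at -1.04 ± 0.18 on counts and did not pass on log2(TPM + 1), at -0.28 (limma adjusted p = 0.198).

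Genes that switch the receptors off also depended on the scale. Of 14 symbols searched, 12 were in the files and tested, and 1 was higher in monocytes and 5 were lower, against 15.5% of all genes higher and 12.4% lower, with a median log2 difference of -0.99. On log2(TPM + 1), 2 were higher and 1 lower, against 33.9% and 8.95% of all genes, with a median of -0.36. Rgs1, a GTPase activator that damps chemokine signals, stood at 199 to 733 TPM in monocytes, highest in TN1 tag_482, and at 9.83 to 48.2 TPM in neutrophils, a log2 difference of 2.87 ± 0.41 (edgeR adjusted p = 0.000799). Rgs2 went the other way at -1.71 ± 0.25 (edgeR adjusted p = 0.00103), with 183 to 603 TPM in neutrophils and 150 to 249 TPM in monocytes. The remaining 4, Rgs14, Arrb2, Grk2 and Rgs18, were lower on counts, did not pass on log2(TPM + 1), and each lost its call without 1 or another library. In the tumour comparisons and in the difference of tumour effects, 0 genes of these 4 lists passed by edgeR with all libraries. DESeq2 called 1 of them, Ccr3, the eotaxin receptor, lower in TN2 monocytes (DESeq2 adjusted p = 0.0499). Ccr3 stood at 8.01 TPM in monocytes TN1 tag_482 and at most 0.04 TPM in the other monocytes. Leaving out tag_191 libraries, so that TN1 of a cell type is tag_482 alone, gave up to 2 calls in a list, among Ccr3, Ccl2, Pik3cg, Pik3r6, Rac1 and Arrb1, named after their values were seen.

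For each receptor the 3 genes with the most similar profile over the 10 libraries are a description, since all high values follow the cell type or single libraries. They were sought among 6660 further genes with at least 10 CPM on average (6661 for Ackr2). Ccr1 ran with Trem1 (Pearson r = 0.996 on log2(CPM + 1), n = 10), Pilra (0.992) and C5ar1 (0.992). Cxcr2 ran with Mrgpra2a (0.997), Stfa2l1 (0.996) and Gm5483 (0.996), and Cxcr4 with Tnfrsf1b (0.966), Crlf2 (0.966) and Ncf1 (0.966). Ccr2 ran with P2rx4 (0.992), Itpr1 (0.986) and Ms4a6d (0.985). Cx3cr1 had the least close matches, with Smarcd2 (0.934), Cops3 (0.929) and Clasp2 (0.921). Ackr2 ran with Lhfp (0.978), the endothelial receptor Tek (0.968) and Rhoj (0.966), and Tek is one of the 9 endothelial genes summed above.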

How the data were processed

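RNA of 10 sorted libraries was analysed. Per the submitters' processing notes, the authors quantified reads with kallisto 0.42.3 on GRCm38. Per the file headers, the deposited tables give an estimated count and TPM for each transcript. The authors' deposited comparison tables hold log2 group means, a signed fold (score), a log2 fold and p-values, and the test behind them is not given in the sources used here. Smart-seq2 carries no molecular identifiers, so PCR copies stay in the counts.

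Transcripts were summed to genes with GENCODE M21, and 81839 of 85276 matched (96.0%). The unmatched held 1.94% to 3.59% of counts and were left out. Summed estimated counts were rounded and fitted as 4 groups in 1 model with edgeR 4.0.16 (filterByExpr with a total of at least 10, TMM, quasi-likelihood F test, 6 residual degrees of freedom, biological coefficient of variation 0.887) in R 4.3.3. Benjamini-Hochberg adjustment ran over 13384 genes, with a threshold of 0.05. The SE is the absolute log2 difference over the square root of F. CPM uses TMM library sizes. All 6 receptors passed the filter. The scripts were tested on simulated data.

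Alternatives were DESeq2 1.42.0, RLE factors, no filter, limma 3.58.1 (trend on log2 of TPM with a pseudocount of 1 or 0.1, and voom), leaving out libraries or tags, the 5 libraries of a cell type alone and the tag as a block. Cx3cr1-201 alone and leaving out the 4 libraries that stand apart were chosen after seeing the data. The labels name no batch.

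The 6 receptors and the gene lists were chosen with earlier results of these data known. Besides the receptors, the text names up to 5 genes a list that passed between cell types, by smallest p, ligands or receptors with at least 10 TPM on average in a group, and the 3 genes most alike each receptor. Cxcr1, Ackr1, Ackr3, Rgs18 and the genes that mark single libraries were named after their values were seen. Some genes that these rules would name are not reported here.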

Additional observations from a re-analysis of the deposited data

How the results depend on the processing

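Between cell types, Ccr1, Cxcr2 and Ccr2 kept direction and call in each of 23 alternatives. They ran over log2 -3.58 to -3.03, -8.37 to -7.22 and 4.57 to 5.81 when libraries or tags were left out. Ccr2 marked the sort, so its steady call is a check of the sort. Without the 4 libraries that stand apart, Ccr2 and Cx3cr1 were the receptors with a positive difference. With libraries or tags left out, Cx3cr1 ran from -1.74 to 2.79 and Ackr2 from -1.93 to 2.51, and Ackr2 was -1.15 without the 4 libraries. Cxcr4 lost its call on both TPM scales (-0.59 and -0.60, limma adjusted p = 0.137 and 0.149) and without monocytes TN1 tag_482.

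Leaving out libraries or tags moved the tumour difference in neutrophils from -0.14 to 0.76 for Ccr1, -0.61 to 1.82 for Ccr2 and -2.64 to 2.16 for Ackr2. In monocytes it moved from -0.10 to 0.69 for Ccr1, -0.11 to 7.69 for Cx3cr1 and -4.18 to 2.49 for Ackr2. The difference of tumour effects moved from -0.27 to 0.68 for Ccr1, -2.35 to 0.13 for Ccr2 and -0.18 to 1.98 for Cxcr2. For Cxcr4 it moved from -0.61 to 0.52 and for Ackr2 from -2.35 to 4.11. Without the 4 libraries that stand apart, where each TN1 group is 1 library, signs turned in neutrophils for Ccr1 (-0.26), Ccr2 (-0.43) and Ackr2 (2.67), in monocytes for Ccr2 (0.29) and Ackr2 (-2.35), and in the difference for Ccr2 (0.72), Cxcr4 (0.036) and Ackr2 (-5.02). On log2(TPM + 0.1), Ccr2 in neutrophils was -0.030, Ackr2 in monocytes -1.31, and the differences for Cxcr4 and Ackr2 were 0.39 and -0.036. On log2(TPM + 1), Ackr2 in monocytes was -0.21 and the difference for Cxcr4 0.37. By limma-voom Ackr2 was -2.24 in monocytes and -0.56 in the difference. Cx3cr1-201 alone gave 0.44 in neutrophils. The causes were not tested. Apart from Cx3cr1 without tag_191, where TN1 was tag_482 alone, none of these tumour values passed in any alternative.

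Tags do not cross the tumours, so the tag as replicate block was fitted for the other comparisons. Correlations of same-tag deviations were 0.09 for tag_191 and tag_482, equal because their groups hold 2 libraries, and -0.08, 0.38 and 0.35 for tag_367, tag_706 and tag_1341. No label ties a tag to an animal or batch and not every correlation was above 0.1, so the main test took tags to share only a number. This is an assumption, since deviations within groups of 2 or 3 libraries cannot show that tags are unpaired. Within a tumour, 4 of 5 tags correlated best with their own, a hint of pairing from the data. Of these, tag_191 and tag_482 are 1 comparison, since their deviations mirror each other, so the hint rests on few comparisons. With the block, cell type calls over all genes went from 2070 higher and 1663 lower to 1793 and 1542. The receptor calls were 1 higher, the sort marker Ccr2, and 3 lower with and without the block. With it Cxcr4 stood at -1.36 (edgeR adjusted p = 0.0122), and the difference for Ackr2 was -0.15. Over all genes, log2(TPM + 0.1) gave 4287 higher and 1151 lower, and leaving out tag_367 gave 1002 and 1148. Against 0 genes with all libraries, leaving out both tag_191 libraries, so that TN1 is tag_482 alone, gave 624 higher and 49 lower in neutrophils and 302 and 15 in monocytes. With 2 or 3 libraries a group, tumour differences of the size of these SEs could not be resolved.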
